A study of Drosophila melanogaster with 8 samples.

Results

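The UDP-glycosyltransferase genes of Drosophila, written Ugt with the number and letter of a subfamily, were examined in fly heads after a light pulse at night and without one. Members were taken by name, as genes whose current symbol starts with Ugt and a digit. No measured value entered this naming rule, but the family was chosen with earlier results of these data known. All 35 such genes of the annotation were on the array, out of 11982 genes named there, and each was represented by exactly 1 probe set, so no choice between probe sets was needed. The related symbol Uggt, a folding sensor of the endoplasmic reticulum that also uses UDP-glucose, falls outside the rule.

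UDP-glycosyltransferases are enzymes of the endoplasmic reticulum membrane that join a sugar from a UDP-sugar donor to small lipophilic molecules, which makes these more soluble and easier to excrete. Insect members mostly use UDP-glucose, where vertebrate ones often use UDP-glucuronic acid. In insects the family is known for the detoxification of plant compounds and insecticides, for the conjugation of hormones and pigments, and, in the antenna, for the clearance of odorants. The question here was which members are present in the head and whether a pulse of light in the early night changed their transcripts.

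Flies of the wild-type strain Canton-S, 3 to 5 days old, were kept at 25 °C and had spent 4 days in cycles of 12 h of light and 12 h of dark. The pulse was saturating light for 30 min that began 3 h into the dark phase, at zeitgeber time 15 (hours since lights on), and the pulsed flies were frozen 1 h after it ended, at zeitgeber time 16.5. Unpulsed flies of the same strain and time point were the control, and the labels state neither the sex of the flies nor how many heads were pooled. Each group had 4 arrays of total head RNA, and p-values measure only the spread between these samples, which may be in part technical, since nothing states that they came from separate groups of flies.

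The markers of head tissue were mostly high. The 6 photoreceptor genes measured, of 13 listed, lay between 10.1 and 15.0 log2 units, and the 7 glial genes measured lay between 7.34 and 13.7 units. Of the 6 neuronal genes measured 4 were above 5 units on every array, while brp averaged 4.02 and para 3.35 units over the 8 arrays. Pulsed replicate 2 stood apart: its correlations with the other 7 arrays, across probe sets, were 0.985 to 0.988, against 0.995 to 0.998 among those 7. Male accessory gland genes reached 10.9 log2 units on it and at most 5.41 on any other array, and the sum of the 13 measured reached 91.7 in pulsed heads, against 37.8 at most in unpulsed heads. Trypsin and other midgut genes were high on the same array, where the 10 measured summed to 59.0, against 37.1 at most in unpulsed heads. Yolk protein genes were low on pulsed replicates 3 and 4 (mean of Yp1 to Yp3 5.33 and 5.35) and on unpulsed replicate 1 (5.13), and between 10.4 and 11.9 on the other 5 arrays. The yolk differences touch both groups, the tract and gut transcripts 1 pulsed array, and values that rest on single arrays are given with and without them.

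The share of Ugt genes with a clear signal in heads was near that of all named genes. Of the 35 genes, 15 were clearly detected, which here means a value of at least 5 log2 units on every one of the 8 arrays, and 18 lay at the floor, below the median of all probe sets on every array. Over all named genes 49.4% were detected by the same measure and 33.3% lay at the floor, against 42.9% and 51.4% of the Ugt genes. The 18 floor genes ranged from 2.18 to 2.96 log2 units. The 12 eggshell genes measured, which are made in the ovary and should be absent from heads, ranged from 2.11 to 3.02 units, so the floor genes could not be told from absent transcripts. Of 16 testis genes measured for the same purpose 1, mia, was detected, at 6.33 to 7.16 units, and the list reached 7.68 units on pulsed replicate 2. A value above 5 units is therefore a signal of the probe set, and not proof that heads make the transcript. A floor value is likewise no proof of absence, because a dim probe set can miss a transcript that is there. Detected members ranged from 5.39 to 9.01 units, and only Ugt317A1 and Ugt37A3 lay between the bands. Values of different probe sets are not set in order here, because probe sets differ in brightness for the same amount of RNA.

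**Figure D1:**
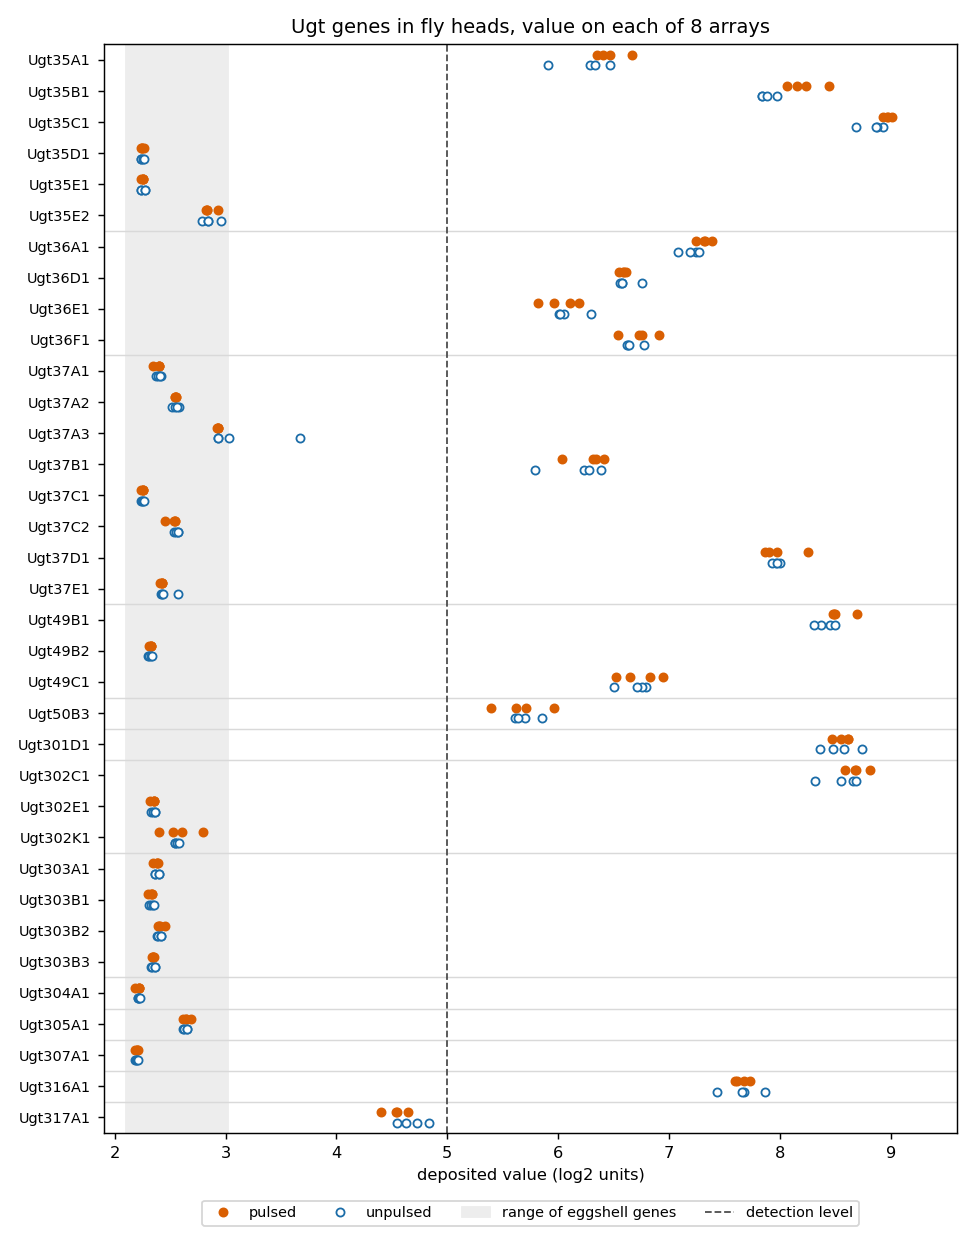
Deposited log2 value of every Ugt gene on each array, with pulsed arrays as filled points above and unpulsed arrays as open points below, grouped by subfamily number. The grey band spans the eggshell genes (2.11 to 3.02 units) and the dashed line marks 5 units: 15 genes lie wholly to the right of it, and 18 floor genes lie inside the band.

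The members closest to the detection level were Ugt50B3 and Ugt317A1. Ugt50B3, the nearest above the detection level, had 5.39, 5.96, 5.62 and 5.71 log2 units in pulsed heads, against 5.70, 5.61, 5.85 and 5.63 units in unpulsed heads. Ugt317A1, the nearest below it, had 4.65, 4.53, 4.55 and 4.40 units in pulsed heads, against 4.72, 4.63, 4.55 and 4.84 units in unpulsed heads. Both were above every eggshell value on all 8 arrays. Ugt37A3 had 2.92 to 2.93 units in pulsed heads, against 3.03, 3.67, 2.93 and 2.93 units in unpulsed heads, so it lay just above the highest eggshell value on unpulsed replicate 1 and clearly above it on unpulsed replicate 2 alone.

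Detection followed the subfamilies in part. All 4 Ugt36 genes (Ugt36A1, Ugt36D1, Ugt36E1 and Ugt36F1) were detected, as were Ugt50B3, Ugt301D1 and Ugt316A1, each the 1 member of its number. Mixed groups were Ugt35 with 3 of 6 (Ugt35A1, Ugt35B1 and Ugt35C1) and Ugt49 with 2 of 3 (Ugt49B1 and Ugt49C1). The 8 Ugt37 genes had 2 detected members, Ugt37B1 and Ugt37D1, and 5 at the floor, and of the 3 Ugt302 genes Ugt302C1 alone was detected. None of the 4 Ugt303 genes was detected, nor were Ugt304A1, Ugt305A1 and Ugt307A1.

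Runs of neighbouring members held detected genes, floor genes or both. In the gene order of the RefSeq annotation (Release 6 plus ISO1 MT, used only for names and neighbours), 23 of the 35 genes lay in 6 runs in which at most 2 other genes stood between a member and the next. The longest run holds 10 genes on chromosome arm 3R, and its 4 detected members, Ugt35C1, Ugt302C1, Ugt35B1 and Ugt35A1, alternated with 6 at the floor. The neighbours Ugt35E2 and Ugt35B1 make the contrast plain: Ugt35E2 never exceeded 2.96 log2 units, and Ugt35B1 was never under 7.84 units. Other runs were uniform, with Ugt36F1, Ugt36D1 and Ugt36E1 on 2L all detected, Ugt49B1 and Ugt49C1 on 2R both detected, and Ugt303B3, Ugt303B1 and Ugt303B2 on 3R all at the floor. On 2L, Ugt37D1 was detected beside Ugt37E1 and Ugt37C2, which were not. Among the 15 pairs of adjacent members with no gene between them, both were detected in 4, both lay at the floor in 6 and 1 of the 2 was detected in 4, with Ugt37A2 and Ugt37A3 as the remaining pair.

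**Figure D2:**
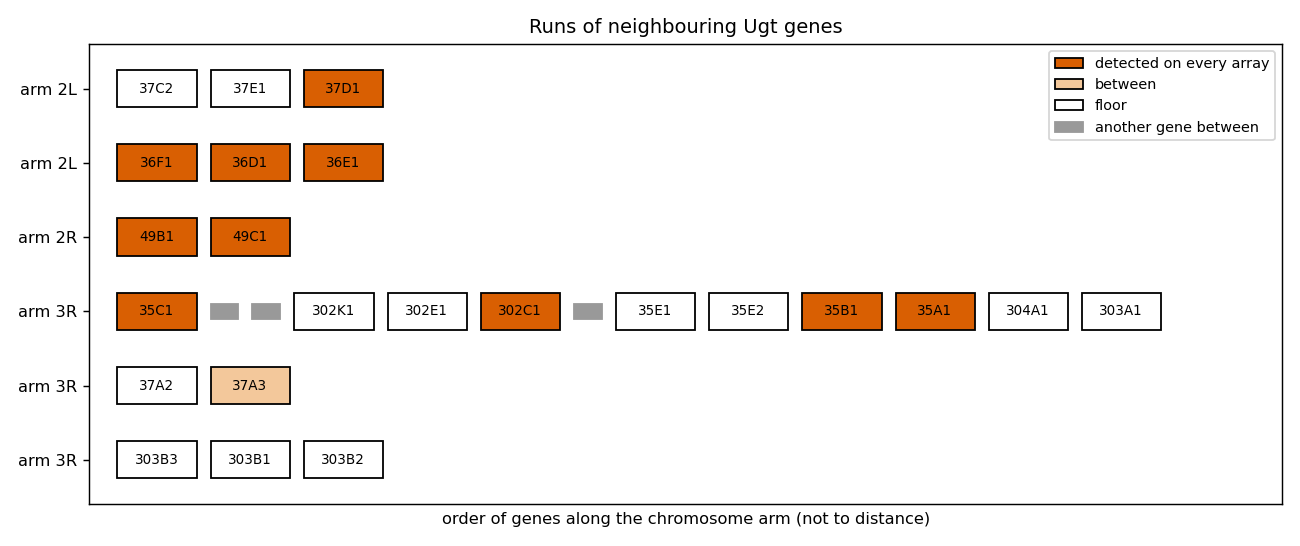
The 6 runs of neighbouring Ugt genes in their order along each chromosome arm (spacing not to scale), coloured by state: detected on every array, between, or at the floor. The 10-gene run on 3R mixes 4 detected genes with 6 at the floor, while the 3 Ugt36 genes on 2L are all detected and the 3 Ugt303B genes are all at the floor.

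Ugt values on pulsed replicate 2, the array with male tract and gut transcripts, were compared with those on the other arrays. Of the 20 members that were not detected, 0 had their highest value on that array and 12 had their lowest there, by at most 0.080 log2 units below the next. Ugt305A1, for instance, was at 2.62 units on pulsed replicate 2 and at 2.64, 2.64 and 2.69 units on the other pulsed arrays, against 2.62, 2.63, 2.65 and 2.66 units in unpulsed heads. Of the 15 detected members 2, Ugt49B1 (8.69 units) and Ugt50B3 (5.96 units), had their highest value on pulsed replicate 2 and 0 their lowest. The part of the tract and gut transcripts in these values was not tested.

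After the light pulse no member of the family passed the test. With limma, 0 of 35 Ugt probe sets reached an adjusted p of 0.05, as did 0 of all 18769 probe sets tested (0%), and adjusted p-values of the detected members ran from 0.805 to 1.00. At an unadjusted p of 0.05 there were 3 members, Ugt35B1, Ugt36A1 and Ugt35C1, all higher in pulsed heads, where 4.81% of all probe sets passed in either direction and 2.4% in that one. The detected Ugt genes had 3 of 15 past it, all upwards, where 10.4% of all detected probe sets passed, 5.49% upwards and 4.91% downwards. Log2 differences of the detected members ran from -0.07 to 0.34, so that no fold lay outside 0.950 to 1.27, and 13 of the 15 were smaller than 0.15 in size. A fit that weights arrays by their spread, and leans on pulsed replicate 3 and unpulsed replicate 2, called 4 members. Of these Ugt35B1, Ugt35C1 and Ugt302C1 were higher and Ugt37A3 lower in pulsed heads, and no other refit called any member. The same fit called 9 of 33 genes of UDP-sugar supply and detoxification. Its share over all probe sets was not counted, so the 4 calls are not read as a trait of the family.

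Ugt35B1, a member described in flies as a transcript of the antenna, had the largest difference. It was at 8.24, 8.15, 8.07 and 8.44 log2 units in pulsed heads, against 7.84, 7.84, 7.98 and 7.88 units in unpulsed heads. All 4 pulsed arrays lay above all 4 unpulsed ones, which held for 1 of the 35 members, against 1.3% of all probe sets and 3% of the detected ones. Counting both directions, the groups did not overlap for 2.56% of all probe sets and 5.28% of the detected ones. The log2 difference was 0.34 (SE 0.081, 95% interval 0.15 to 0.53, n = 4 per group), or 1.27-fold, with a limma adjusted p of 0.805 over all probe sets. An exact 2-sided permutation test gave p = 0.0286, the smallest that 70 arrangements allow, without adjustment for the other members. Groups that do not overlap always give this p, so it only repeats their separation. Ugt35B1 was already known from an earlier look at these arrays, so its rank, p-values and interval are no independent evidence. The difference was 0.36 among replicates numbered 1 and 2 and 0.32 among replicates 3 and 4, and ran from 0.27 to 0.39 when 1 array was left out. As the groups did not overlap, no such split or omission could turn its sign, so these values show only its size.

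Most antennal markers lay below their unpulsed means, and none passed the test. Of the 8 measured, 7 were below, among them Orco at -0.0016 and Obp56d at -0.03. The odorant-binding protein genes Obp69a and Obp83b were at log2 differences of -0.88 and -0.75, and a10, another antennal transcript, at -0.31. All measured but Obp56d had their lowest value on pulsed replicate 2. Only Obp28a, another odorant-binding protein gene, was above, at 0.19. Log2 values of the 8 genes summed to between 42.2 and 50.3 in pulsed heads, against 46.8 to 49.1 in unpulsed heads. Pulsed heads thus held both the lowest sum, on pulsed replicate 2, and the highest, on pulsed replicate 1. Orco, the odorant co-receptor gene, lay at the floor in both groups. In whole heads, fewer cells of a type and less RNA per cell cannot be told apart, and the part of antennal tissue in the Ugt35B1 values was not tested.

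The other detected members of the 3R run had smaller differences, above 0 in the plain fit; with a 3′ minus 5′ term for RNA integrity in the fit, Ugt302C1 was at -0.04, Ugt35A1 at -0.01 and Ugt35C1 at 0.01. Ugt35A1, the direct neighbour of Ugt35B1, was at 6.67, 6.40, 6.35 and 6.47 log2 units in pulsed heads, against 6.46, 6.28, 5.91 and 6.33 units in unpulsed heads. The groups overlapped, the log2 difference was 0.22 (SE 0.13), and without unpulsed replicate 3, which held the lowest value, it was 0.11. Ugt35C1, known as Ugt86Dd for its part in nicotine resistance, was at 9.01, 8.97, 8.98 and 8.93 units in pulsed heads, against 8.93, 8.88, 8.68 and 8.86 units in unpulsed heads. Its groups met at 8.93, with a difference of 0.13 (SE 0.053, 95% interval 0.0064 to 0.26), or 0.080 without unpulsed replicate 3. Ugt302C1 was at 8.82, 8.59, 8.69 and 8.68 units in pulsed heads, against 8.66, 8.55, 8.32 and 8.69 units in unpulsed heads. Its difference of 0.14 (SE 0.089) was likewise smaller, 0.061, without that array.

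Members of the Ugt36 and Ugt49 subfamilies lay close to their unpulsed levels. Ugt36A1, also called Dorothy, whose promoter is used to mark blood and pericardial cells, was at 7.38, 7.25, 7.32 and 7.32 log2 units in pulsed heads, against 7.24, 7.27, 7.08 and 7.19 units in unpulsed heads. The difference was 0.12 (SE 0.047, 95% interval 0.011 to 0.23), with pulsed replicate 2 under 1 unpulsed array. Ugt36E1, which olfactory neurons need for telling pheromones apart, was at 6.19, 6.11, 5.96 and 5.82 units in pulsed heads, against 6.05, 6.003, 6.30 and 6.02 units in unpulsed heads. Pulsed replicates 3 and 4 lay below every unpulsed array and unpulsed replicate 3 above every pulsed one, while the other arrays overlapped. The difference was -0.07 (SE 0.099), or -0.01 without unpulsed replicate 3. Its neighbours Ugt36F1 and Ugt36D1 had differences of 0.07 and -0.03. Ugt49B1 was at 8.49, 8.69, 8.48 and 8.50 units in pulsed heads, against 8.37, 8.45, 8.31 and 8.50 units in unpulsed heads, a difference of 0.13 (SE 0.061) that was 0.080 without pulsed replicate 2, its highest array. Its neighbour Ugt49C1 was at 0.05 (SE 0.11).

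Among the remaining detected members, single arrays set the sign of the difference. Ugt37D1 was at 7.87, 7.90, 8.26 and 7.97 log2 units in pulsed heads, against 7.998, 7.97, 7.93 and 7.97 units in unpulsed heads, a difference of 0.03 that was -0.05 without pulsed replicate 3. Ugt37B1 was at 6.41, 6.31, 6.34 and 6.03 units in pulsed heads, against 6.23, 6.28, 5.79 and 6.39 units in unpulsed heads, a difference of 0.10 that was -0.02 without unpulsed replicate 3. In both genes the groups overlapped. Ugt301D1 was at 8.61, 8.55, 8.62 and 8.47 units in pulsed heads, against 8.36, 8.48, 8.58 and 8.74 units in unpulsed heads, with a difference of 0.02. Ugt316A1 was at 7.73, 7.67, 7.61 and 7.59 units in pulsed heads, against 7.67, 7.66, 7.86 and 7.43 units in unpulsed heads, with a difference of -0.0046. For both, as for Ugt50B3 (-0.03), the groups overlapped widely, and the sign of each turned when 1 array was left out, as did those of Ugt36D1 and Ugt49C1. Between the bands, Ugt317A1 was at -0.15 (SE 0.075) and ran from -0.20 to -0.10 when 1 array was left out, with limma adjusted p-values above 0.05 each time. Ugt37A3 was at -0.21 (SE 0.17), and at -0.04 without unpulsed replicate 2, its 1 high array. Floor genes had differences between -0.04 and 0.02.

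**Figure D3:**
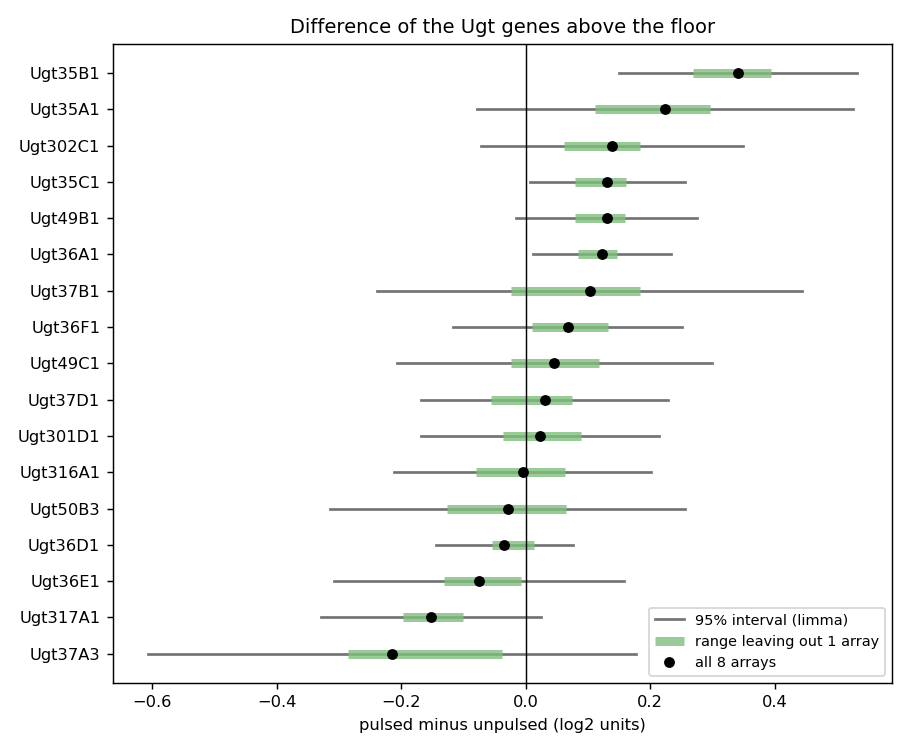
Pulsed minus unpulsed log2 difference of the 17 Ugt genes above the floor (points), with limma's 95% interval (thin lines, not adjusted for the number of genes) and the range when each array is left out in turn (green bars). The intervals of Ugt35B1, Ugt35C1 and Ugt36A1 do not reach 0, and no interval of a detected gene extends past 0.53 or below -0.31.

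As a group, 11 of the 15 detected members were above their unpulsed mean, where 49.1% of all detected probe sets were, and their median log2 difference was 0.07, against -0.0031 over all detected genes. Over all 35 members 16 were above it, against 41.4% of all probe sets, with a median of -0.00054, close to the -0.0014 over all named genes. Without pulsed replicate 2 the count over all members was 27, and without pulsed replicate 4 the median of the detected members was 0.12. In size the detected members' differences were ordinary, with a median absolute log2 difference of 0.075 against 0.086 over all detected genes. Among replicates numbered 1 and 2 and among those numbered 3 and 4, 8 of the 15 had the same sign each time, all of them higher in pulsed heads. These are parts of the same arrays, and so no separate evidence. The count of 11 was 7, and the median -0.01, when the 3′ minus 5′ difference of control probe sets, a sign of RNA integrity, was added to the fit. That difference, averaged over actin, GAPDH and eIF-4a, was 1.63 to 1.79 in pulsed heads, against 1.77 to 2.01 in unpulsed heads. These ranges barely overlap, so the fit could hardly tell the pulse from RNA integrity, and its differences are poorly determined. With this term in the fit, Ugt35B1 was at 0.50, Ugt36A1 at 0.084 and Ugt35C1 at 0.013, with limma adjusted p-values of 0.994 each. Some cell type markers also lay apart between the groups. The glial genes Gli (-0.26, SE 0.047) and nrv2 (-0.37, SE 0.12) were below all unpulsed arrays on every pulsed one. The glial gene repo was at -0.04. Of the 7 glial genes measured 4 were higher and 3 lower in pulsed heads, with a median log2 difference of 0.0013. Among all detected probe sets 5.28% had groups that did not overlap, in either direction. The lipase gene Lip4, of the fat body list, lay above all unpulsed arrays on every pulsed one (0.39, SE 0.075), while apolpp was at -0.24 and FASN1 at -0.22. Log2 values of the 7 glial genes summed to between 68.0 and 68.6 in pulsed heads, against 68.7 to 69.1 in unpulsed heads, and those of the 9 fat body genes to between 78.3 and 96.9 in pulsed heads, against 78.1 to 98.3 in unpulsed heads. Limma called none of these markers, with adjusted p-values of 0.539 for Gli and 0.567 for Lip4, and their part in the Ugt values was not tested.

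The members also varied among arrays within a group, in a pattern that 2 arrays led. Within-group SDs of the detected genes ran from 0.070 log2 units for Ugt36D1 to 0.22 for Ugt37B1, with a median of 0.13. Unpulsed replicate 3 held the lowest of the 8 values for 7 of the 15 genes and the highest for 3. It lay furthest below the gene mean for Ugt35A1 (-0.45), Ugt37B1 (-0.43) and Ugt302C1 (-0.30), and furthest above it for Ugt36E1 (0.24), Ugt316A1 (0.21) and Ugt50B3 (0.17). Pulsed replicate 1 held the highest value for 7 genes and the lowest for Ugt37D1 and Ugt50B3. On unpulsed replicate 3 the fat body storage protein gene Lsp2 was at 13.9 log2 units, against 14.7 to 15.0 on the other 7 arrays, and the neuronal gene fne was at 8.46, against 9.31 to 9.96. The lists were not of 1 kind on that array. The neuronal genes brp and para also had their lowest value there, elav and nSyb had theirs elsewhere, and Snap25 had its highest there (12.3). No other gene of the fat body list had its lowest value on it. Lsp2 and these neuronal genes were chosen after their values were seen, and their part in the Ugt values was not tested.

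**Figure D4:**
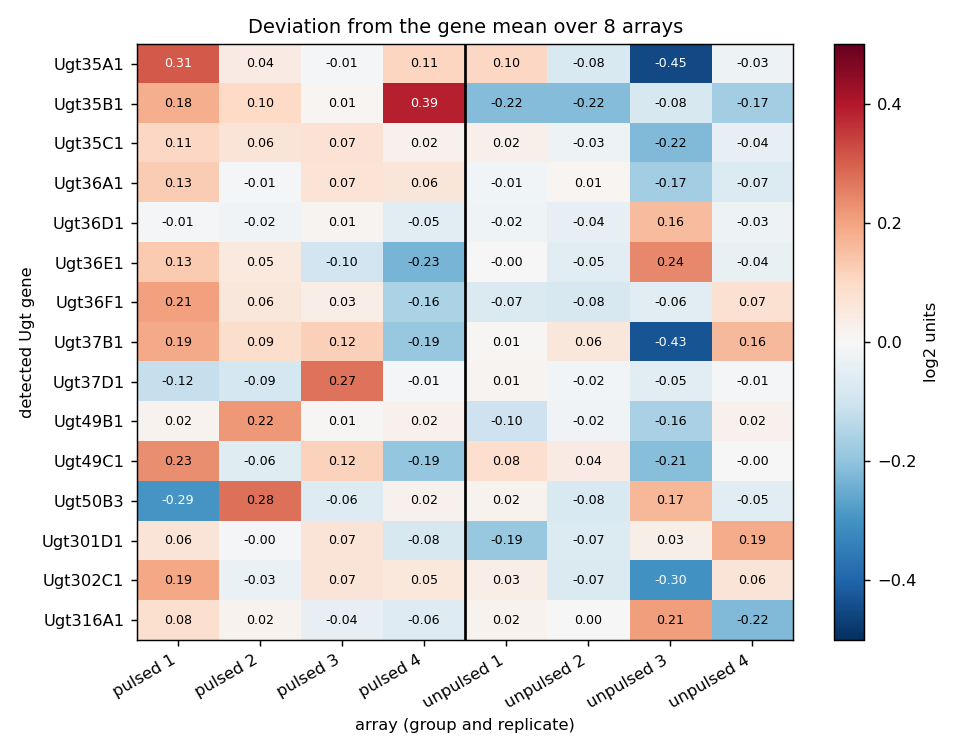
Deviation of each detected Ugt gene from its own mean over the 8 arrays, in log2 units (red above, blue below), with pulsed arrays left of the line and unpulsed arrays right of it. The strongest blues are Ugt35A1 and Ugt37B1 on unpulsed replicate 3, the strongest red is Ugt35B1 on pulsed replicate 4 (0.39), and Ugt35B1 alone is above its mean on all pulsed arrays and below it on all unpulsed ones.

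Genes that make and carry the sugar donors did not pass the test either. Of 16 measured genes of UDP-sugar supply, 0 passed limma's adjusted threshold, 8 lay above and 8 below their level in unpulsed heads, and the median of the log2 differences was 0.00082. Uxs, which makes UDP-xylose from UDP-glucuronic acid, was at -0.14 (SE 0.051), and Galt, of galactose use, at 0.19 (SE 0.084), both with groups that overlapped. GlcT, a ceramide glucosyltransferase gene, lay at the floor (-0.07), and so did UGP, the gene of the enzyme that makes UDP-glucose, at 2.28 log2 units in each group. Such values do not show that these transcripts were absent from heads. Among 17 measured regulators and exporters of detoxification, 0 passed, with 6 above and 11 below and a median of -0.05. Mdr49, an efflux pump gene, was at 0.18 (SE 0.065), tgo, the partner of several bHLH-PAS factors, at -0.22 (SE 0.12), and the ecdysone receptor gene EcR at -0.24 (SE 0.14). The drug-responsive regulators cnc (-0.05) and Hr96 (-0.16) had limma adjusted p-values of 1.00.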

How the data were processed

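Head RNA, extracted with Trizol and labelled with biotin per the labels' protocols, was hybridised to 8 Affymetrix arrays, 4 per group. The deposited table holds 1 log2 value for each probe set on each array, a scale taken from the range of the values. The authors' probe summary, background correction and normalization: not given in the sources used here. Medians of the arrays lay between 2.94 and 3.05 units. Of 18952 probe sets, 183 controls were left out. Probe sets were named from the platform annotation, with symbols updated by gene number through the RefSeq table (Release 6 plus ISO1 MT) for 13544 of them. None of the 35 Ugt probe sets was listed with a second gene, though 3 (Ugt36E1, Ugt37D1 and Ugt50B3) carry Affymetrix's suffix for probes shared between transcripts.

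Pulsed minus unpulsed was fitted with limma 3.58.1 in R 4.3.3 (lmFit, eBayes) over 18769 probe sets, 2-sided, Benjamini-Hochberg adjusted over all, at 0.05; dim probe sets were kept. Exact permutation tests used 70 arrangements. No pair of arrays was identical, precision is limited by their number, and the fit was tested on simulated data.

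Members, lists and the detection level were chosen with earlier results of these data known. The rule for naming gave values on every array for the 8 Ugt genes with the highest mean, the 6 with the smallest unadjusted p, Ugt35B1 and the 3 of largest within-group SD among those with a mean of at least 5. It also named up to 3 genes of each other list by p, given as differences. Of marker lists, only genes of the antennal, glial and fat body lists are named under it. The others are given by range or sum, as single genes added later, or not at all. Ugt36D1, Ugt36F1, Ugt49C1, Ugt36E1, Ugt37A3, Ugt305A1, cnc, Hr96 and UGP, and the markers given by value, were added after their values were seen. Alternatives changed the scaling (quantile, or arrays centred on their medians), added a pseudocount of 16, removed probe sets under the 40th percentile, let the spread follow the level robustly, weighted arrays, blocked on replicate number, split replicates 1 and 2 from 3 and 4, added a yolk protein or a 3′ minus 5′ covariate, averaged probe sets by gene, or left out each array. Counts over the 15 detected genes were added after the data were seen.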

Additional observations from a re-analysis of the deposited data

Results flagged for a closer look

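Within a group of 4 arrays, a value was picked out when its gap to the next, as a share of the group's range, passed Dixon's limit, which chance passes in about 1 of 20 groups. Of 70 groups (35 genes in both conditions), 14 had such a value, 9 of them on pulsed replicate 2. On that array Ugt49B1 was high at 8.69 log2 units, against 8.48 to 8.50 on the other pulsed arrays. The other 8 values there were low ones of genes near the floor and differ from the rest by hundredths of a unit up to 0.085: Ugt37C2 (2.451), Ugt37A1 (2.348), Ugt37C1 (2.234), Ugt302E1 (2.319), Ugt304A1 (2.186), Ugt303A1 (2.346), Ugt37A3 (2.919) and Ugt49B2 (2.305). Ugt35E2 was high on pulsed replicate 3 (2.931).

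In unpulsed heads, Ugt37A3 was at 3.672 on replicate 2, against 2.93 to 3.03 on the others, and Ugt37E1 at 2.571 on replicate 1. Among detected genes, Ugt36D1 was at 6.757 on unpulsed replicate 3, against 6.56 to 6.58, and Ugt36F1 at 6.774 on unpulsed replicate 4, against 6.62 to 6.64. What set these single arrays apart was not tested.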

How the results depend on the processing

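No Ugt gene was called in 18 of the 19 refits. With array weights 4 were, Ugt35C1 (0.099, limma adjusted p = 0.0237), Ugt302C1 (0.15, 0.0378), Ugt35B1 (0.30, 0.0314) and Ugt37A3 (-0.68, 0.0157). So were 9 of 33 genes of UDP-sugar supply and detoxification, and the share of all probe sets called was not counted. Pulsed replicate 3 and unpulsed replicate 2 had weights of 6.81 and 10.1 there. That fit had 27 of 35 Ugt genes above the unpulsed mean, a median of 0.013 and Ugt36D1 at 0.036. An unadjusted p of 0.05 gave 3 members, an adjusted p of 0.1 gave 0. The Ugt median was -0.014 with median-centred arrays and 0.031 with the filter, which leaves 19 members. Leaving out 1 array gave 13 to 27 of 35 above the unpulsed mean (27 without pulsed replicate 2), 11 to 12 of the 15 detected, a detected median of 0.060 to 0.12 (without pulsed replicate 4), an all-member median of -0.0062 to 0.0047, and 0 calls in each refit.

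The 3′ minus 5′ covariate left 7 of 15 detected members above, with a median of -0.012, and turned the sign of Ugt302C1 (-0.044), Ugt301D1 (-0.014), Ugt37D1 (-0.012), Ugt316A1 (0.12), Ugt35A1 (-0.014), Ugt37B1 (-0.24), Ugt50B3 (0.026), Ugt36F1 (-0.068), Ugt36D1 (0.022), Ugt49C1 (-0.16) and EcR (0.023). Quantile normalization put Ugt316A1 at 0.0061, and the yolk covariate Ugt37D1 at -0.0038 and Ugt316A1 at 0.0087. Leaving out 1 array also turned signs: the difference ran from -0.037 (without unpulsed replicate 1) to 0.089 for Ugt301D1, from -0.055 (without pulsed replicate 3) to 0.075 for Ugt37D1, from -0.079 to 0.064 for Ugt316A1, from -0.024 (without unpulsed replicate 3) to 0.18 for Ugt37B1, from -0.13 to 0.064 (without pulsed replicate 1) for Ugt50B3, from -0.054 to 0.013 (without unpulsed replicate 3) for Ugt36D1 and from -0.024 (without pulsed replicate 1) to 0.12 for Ugt49C1. The causes were not tested. Of the 15 detected genes 5 kept their sign in all 19 refits, Ugt35B1, Ugt36A1, Ugt35C1, Ugt49B1 and Ugt36E1.

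Same-numbered arrays deviated together, with a correlation over 0.1 across all probe sets, in 0 of 4 pairs (correlations of -0.070 to 0.078). This shows no sign of pairing by number. It cannot exclude a shared batch, because pulsed replicate 2 stood apart and enters the mean of its group. With the replicate block Ugt35B1 stayed at 0.34 (limma adjusted p = 0.767; over its 19 refits that p lay between 0.0314 and 1.00) and 0 Ugt genes were called. Detected were 16 genes at 4 log2 units, 11 at 6, and 15 without pulsed replicate 2 or after quantile normalization. Each gene has 1 probe set, so averaging probe sets changed no Ugt difference.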
